A study of Mus with 3 samples.

Results

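Hippocampal gene expression was compared between mice that had received the amyloid peptide fragment Aβ25-35 in the brain ventricles (ACO, the peptide control group) and mice that had received water (NCO, the normal control group). The members of the comparison are the genes read well above background on both arrays, and they numbered 13317 of the 23694 named genes on the array, or 56.2%. All animals were male Slc:ddY mice, an outbred stock, aged 6 weeks, and both groups were given distilled water by mouth for 15 days. On day 8, each ACO mouse received 5 µL of solution with 10 nmol of the peptide by intracerebroventricular injection. Each NCO mouse received 5 µL of distilled water on a route that the labels do not state, so that the injection itself and the peptide cannot be told apart where the routes differed. A further group (ASO) was given shochu oil by mouth at 2000 mg/kg/day and is named as peptide-injected in the study's design, although the injection protocol writes SCO, a name that no sample here carries. Its array is quoted here only as a further reading beside the ACO and NCO values, so ACO and ASO are set against the same NCO array. The hippocampus was taken after a Y-maze test on day 16, and RNA of 10 mice per group, as 5 sets of 2 mice each, was pooled in equal amounts onto 1 array. With 1 pool per group there was no replicate check, no test was possible, and the number of arrays limits the precision of every value below.

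Aβ25-35 is a short fragment of amyloid β that aggregates and is toxic to neurons, and its injection into the ventricles of rodents is used to impair memory within days. Microglia and astrocytes respond to amyloid with complement, antigen presentation and interferon programmes, and neurons of the hippocampal circuit run from the dentate gyrus through CA3 to CA1. The ventricles into which the peptide is injected are lined by ependyma and hold the choroid plexus, both of which lie against the hippocampus when it is dissected.

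Every signal below is a background-corrected spot intensity, brought to one 75th percentile on all arrays. Every difference is log2(signal + 50) on ACO minus that on NCO, so a positive difference means a higher signal on ACO, and the added constant draws the differences of dim probes towards 0. A probe counted as above background where its signal to noise score reached 2.6. The 531 probes just inside that limit, at scores from 2.6 to 3, had a median difference of -0.020, and the 665 probes just outside it, at scores from 2.2 to 2.6, had one of -0.027.

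The arrays covered 39429 gene probes each, of which 50.9% were above background on NCO and 51.7% on ACO. The labelled tissue carried the markers of its own fields, with 20 of 24 listed dentate granule genes, 13 of 16 CA1 genes and 19 of 22 CA3 and CA2 genes measured. Markers of neighbouring regions were also measured, 16 of 25 for thalamus and habenula, 14 of 20 for striatum and 7 of 21 for hypothalamus, pituitary and cerebellum. The spike-in control transcripts added during labelling read lower on ACO after scaling, with a median difference of -0.14 over 5 probes and a range from -0.16 to -0.12. No scaling to these controls was run, so the sign of smaller differences and list medians below holds only relative to the scaling used. Because whole hippocampus was used, fewer cells of a type and less RNA per cell cannot be told apart in any value below.

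The arrays differed little for most genes. Across 13317 genes the log2 signals correlated at r = 0.998, a value across genes, which are not independent replicates. The differences had a median of 0.005 and an SD of 0.14, and 94.5% of genes lay within 1.2-fold. The difference lay above 0 for 6897 genes, 51.8% of all, and below 0 for 6420 genes, 48.2%. At 1.2-fold, 368 genes (2.76%) were higher on ACO and 362 genes (2.72%) were lower, and scaling by the median in place of the 75th percentile changed this split to 461 higher and 293 lower. At 1.5-fold the counts were 27 and 28. Dim genes reached 1.2-fold more often, 7.75% of the 3330 dimmest against 3.15% of the 3329 brightest.

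**Figure D1:**
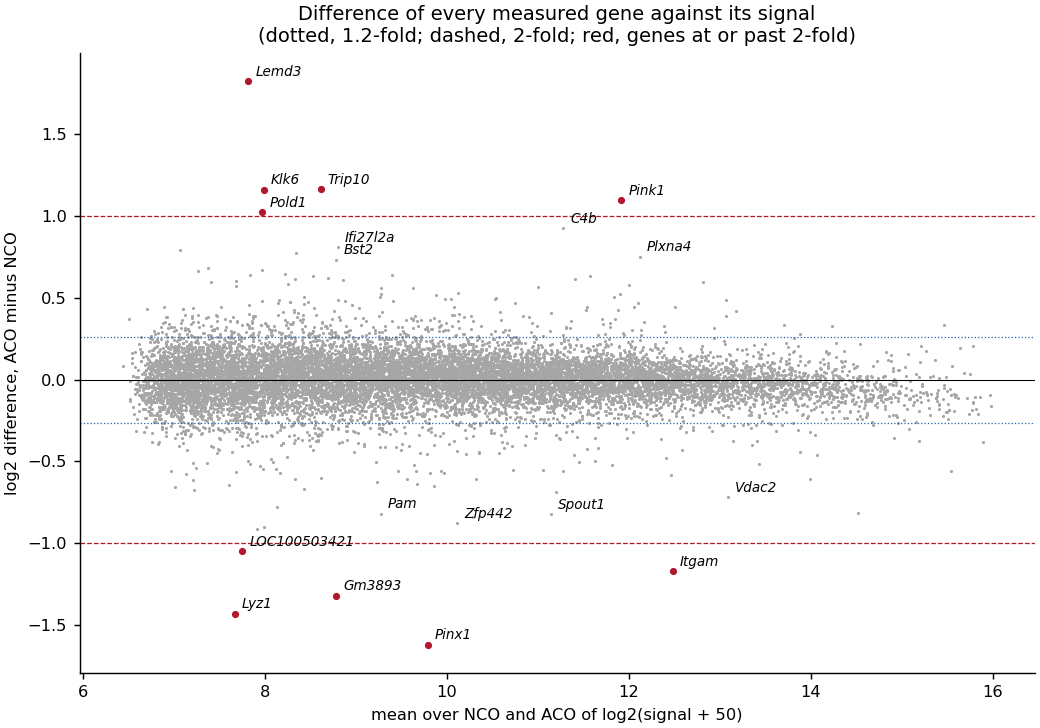
Each point is 1 of the 13317 measured genes, with the mean of its log2(signal + 50) on the NCO and ACO arrays on the x axis and its log2 difference, ACO minus NCO, on the y axis. Dotted lines mark 1.2-fold and dashed lines 2-fold; the 5 genes at or past 2-fold on either side are red, and most other genes lie in a narrow band around 0.

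At 2-fold, 5 genes were higher on ACO (0.0375% of all) and 5 were lower (0.0375%). With spot means in place of spot medians Lemd3 alone of the 5 higher genes, Lemd3, Trip10, Klk6, Pink1 and Pold1, stayed at 2-fold, and with 200 added before log2 Lemd3 and Pink1 did. Of the 5 lower genes, all stayed with spot means, and Pinx1 and Itgam stayed with 200 added. Klk6, a secreted serine protease made by oligodendrocytes, read 119 on NCO, 329 on ACO and 248 on ASO, a difference of 1.16. Pold1, the catalytic subunit of DNA polymerase delta, read 126 on NCO against 307 on both ACO and ASO, a difference of 1.02. Lemd3, an inner nuclear membrane protein, had the largest difference at 1.82, with 69.3 on NCO, 372.5 on ACO and 385 on ASO. Its second probe read 67.2, 71.6 and 57.5, a difference of 0.05, so the Lemd3 value rests on 1 of its 2 probes. Of the 5 lower genes, Lyz1, an antibacterial lysozyme, read 283 on NCO, 73.5 on ACO and 153 on ASO, a difference of -1.43. Lyz1 has a close copy in Lyz2, and the probe may read both, although no probe named for Lyz2 was above background on NCO or ACO. The predicted gene Gm3893 read 643, 227 and 216 in the same order, a difference of -1.32, and the unplaced transcript LOC100503421 read 259, 99.2 and 103, a difference of -1.05.

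With the dimmest genes left out, Trip10, a membrane-bending adaptor protein that binds the GTPase Cdc42, read 211 on NCO, 535 on ACO and 552 on ASO, a difference of 1.17. Pink1, the kinase that marks damaged mitochondria for removal, read 2580.0 on NCO, 5586 on ACO and 3669.6 on ASO, which put ACO 2.14-fold over NCO on the log2(signal + 50) scale. The ASO reading of Pink1 lay between the others, whereas that of Trip10 was as high as on ACO. Plxna4, a receptor for semaphorins in axon guidance, read 3373, 5715 and 6462, a difference of 0.75. Camk2n1, an inhibitor of the synaptic kinase CaMKII, read 2381, 3732 and 3893, a difference of 0.64. Gabra4, a subunit of the GABA-A receptor, read 211, 349 and 404, a difference of 0.61, and between 0.2 and 0.69 under other processing. Mcee, an enzyme of propionate breakdown, read 187, 321 and 316, a difference of 0.65. Cwc22, a splicing factor, read 246, 409 and 288, a difference of 0.63. Ptma, the chromatin protein prothymosin alpha, differed by 0.60 on its brightest probe and by -0.03 on its second. The ASO value lay nearer to ACO than to NCO for 9 of the 15 highest genes of this kind. The share over all genes is not given here, and the genes were picked for their distance from the same NCO array. The count is therefore no result about these genes.

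The lower genes of the same brightness were led by Pinx1, an inhibitor of telomerase, which read 1499.6 on NCO, 454 on ACO and 1009.6 on ASO, a difference of -1.62. Spot means in place of spot medians gave -2.32. Itgam, the alpha chain of complement receptor 3 and the CD11b antigen of microglia, read 8521 on NCO, 3760.2 on ACO and 4790.1 on ASO, a difference of -1.17. Its partner chain in that receptor, Itgb2, read 101, 104 and 144, a difference of 0.03. Zfp442, a zinc finger gene, read 1445, 764 and 864, a difference of -0.88. Spout1, a methyltransferase of the spindle, read 2946, 1644 and 2625, a difference of -0.82, so its ASO reading was close to that of NCO. Pam, which amidates neuropeptides, read 771, 415 and 344, a difference of -0.82. Vdac2, a pore of the outer mitochondrial membrane, read 11129, 6741 and 12491, a difference of -0.72, and ACO alone was low. Dpysl3, a collapsin response mediator protein of growing axons, read 2932, 1805 and 2236, a difference of -0.685. The further genes of this set were Abhd1, Tbc1d30, Chst11, Slc25a29, Lbhd2, Nudt3 and Aig1, all between -0.67 and -0.61, and Taf13 at -0.60. The second probe of Aig1 lay at -0.10. The ASO value was nearer to ACO for 10 of these 15 lowest genes, a count with the same limits as that of the highest genes. Most of the genes named so far were read by 1 probe at 1 spot, so their differences have no second reading on the same arrays.

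A second probe gave such a reading for 3017 genes. The differences of a gene's brightest and second probe correlated at r = 0.15 across genes. Of the 65 genes whose brightest probe was at least 1.2-fold higher on ACO, the second probe also lay above 0 in 42 (64.6%, against 47.0% of all 3017) and past 1.2-fold in 13 (20%, against 2.52%). Of the 70 genes whose brightest probe was at least 1.2-fold lower, the second lay below 0 in 45 (64.3%, against 53.0%) and past 1.2-fold in 11 (15.7%, against 3.35%). All probes were at least 1.2-fold higher in 12 genes and at least 1.2-fold lower in 9.

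Among the genes whose probes were all higher, Sh3bgr, a small protein with a glutaredoxin-like fold, led with differences of 0.62 and 0.65. Its brightest probe read 2140 on NCO, 3306 on ACO and 1359 on ASO, so ACO was the highest array and ASO the lowest. Tuba1c, an alpha tubulin, differed by 0.53 and 0.52, with 873, 1282 and 1060.1 on its brightest probe. S100a4, a calcium-binding protein of motile cells, differed by 0.47 on both probes, with 244, 355 and 418. Rbm3, an RNA-binding protein induced by cold, differed by 0.51 and 0.37, with 3019, 4306 and 3214. Tmem176b, a membrane protein of dendritic cells and macrophages, differed by 0.43 and 0.30, whereas its neighbour and partner Tmem176a differed by 0.02. Zfp945, a zinc finger gene, differed by 0.41 and 0.42, and Ehmt1, a histone H3 lysine methyltransferase, by 0.30 and 0.29. The choroid plexus genes Kcnj13 and Folr1 and the ciliary gene Tekt1, described below, completed the 10.

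Of the genes whose probes were all lower, Ccl19, a chemokine of lymphoid tissue, led with differences of -0.91 and -0.88. Its brightest probe read 281, 126 and 117 on the NCO, ACO and ASO arrays, and its second 258, 117 and 109. Fam205a2, a member of a tandem gene family with close copies, differed by -0.90, -0.36 and -0.64 on its 3 probes. Nprl3, a subunit of the GATOR1 complex that restrains mTORC1, differed by -0.56 and -0.69, with 929, 616 and 570 on its brightest probe. Fggy, a carbohydrate kinase, differed by -0.61 and -0.43. Cux2, a homeobox gene of upper-layer neurons, differed by -0.41 and -0.28, and Mrto4, a ribosome assembly factor, by -0.45 and -0.30. The histone gene H4c12 differed by -0.42 and -0.31, although histone copies can share sequence, and Snrnp35, a spliceosomal protein, by -0.31 and -0.30. Eml2, a microtubule-associated protein, differed by -0.28 and -0.46, and Ckb, brain creatine kinase, by -0.26 and -0.28. Both Ckb probes were lower on ACO than on either other array, at 10237 against 12229 on NCO and 11902 on ASO for the brightest.

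Probes of 1 gene also parted widely in a few cases, which were chosen after their values were seen. For Rpl36, a ribosomal protein gene, the brightest probe differed by -0.09 and another by 0.03, while the remaining probe read 3188 on NCO, 22243 on ACO and 25564 on ASO, a difference of 2.78. For Drosha, the nuclease that starts microRNA processing, the brightest probe differed by 0.06, and the second read 386, 2553 and 3174, a difference of 2.58. For Rpsa, another ribosomal protein gene, the second probe read 19877, 7010.2 and 10270, a difference of -1.50, against -0.13 and -0.05 on the others. For Cplx2, complexin 2 of the synaptic vesicle machinery, the second of 5 probes read 18765, 7620.5 and 10033, a difference of -1.29, against values from -0.37 to -0.06 on the other probes. In each of these 4 genes the deviating probe set NCO apart, and ASO read near ACO.

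**Figure D2:**
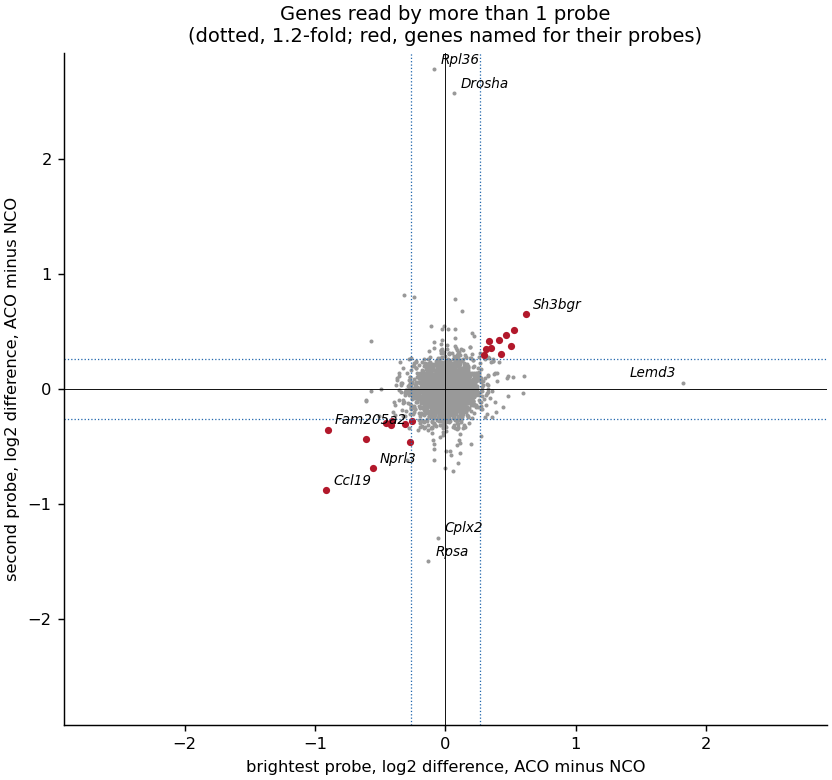
Each point is 1 of the 3017 genes with more than 1 measured probe, with the log2 difference, ACO minus NCO, of its brightest probe on the x axis and of its second probe on the y axis. Dotted lines mark 1.2-fold and red points the 20 genes named for probes that all went 1 way; Rpl36, Drosha, Rpsa, Cplx2 and Lemd3 are the widest disagreements.

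Probes printed at 10 spots gave the spread of a difference on the array surface, which holds spot error and not the spread between mice. Over 251 such probes the median SD of the difference was 0.0847, and all 10 spots lay above 0 for 23 probes and below 0 for 13. Ifitm3, an interferon-induced protein that blocks viral entry, read 1024, 1355 and 1630.3 on the NCO, ACO and ASO arrays and differed by 0.39 ± 0.07 (SD, n = 10 spots of 1 probe). Slc2a4, the insulin-responsive glucose transporter, differed by 0.33 ± 0.12, Dsp, the desmosomal protein desmoplakin that marks dentate granule cells, by 0.32 ± 0.08, and H2-K1, an MHC class I chain, by 0.25 ± 0.05. The second H2-K1 probe went the other way, at -0.15. Ptgs2, the inducible cyclooxygenase, differed by 0.23 ± 0.13, St6galnac2, a sialyltransferase, by 0.22 ± 0.06, and Tlr2, a pattern recognition receptor, by 0.20 ± 0.12. Zbtb43, a zinc finger factor, differed by 0.19 ± 0.08, Igtp, an interferon-induced GTPase, by 0.18 ± 0.10, and C3, the central complement component, by 0.17 ± 0.07. In all 10 of these probes every spot was higher on ACO, although the second Zbtb43 probe lay at -0.01.

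On the lower side C1qc, a chain of the complement initiator C1q, read 1729, 1253 and 2708 on the NCO, ACO and ASO arrays and differed by -0.45 ± 0.06, with every spot between -0.57 and -0.36. Lmnb1, lamin B1 of the nuclear lamina, differed by -0.25 ± 0.14, Ttc19, a complex III assembly factor, by -0.24 ± 0.10, and Lamp5, a marker of a class of interneurons, by -0.22 ± 0.11. The other Ttc19 probes lay nearer to 0, the brightest at -0.04. Ntrk2, the receptor for brain-derived neurotrophic factor, differed by -0.18 ± 0.05 on its 10-spot probe and by -0.03 and 0.05 on its other probes. Kif5a, a neuronal kinesin, differed by -0.18 ± 0.11, Hsd11b1, which regenerates glucocorticoids, by -0.17 ± 0.09, and Cfap69, a ciliary protein, by -0.15 ± 0.05. Arl15, a small GTPase, differed by -0.13 ± 0.11 with 9 of 10 spots below 0, and Nefm, a neurofilament subunit, by -0.13 ± 0.05.

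**Figure D3:**
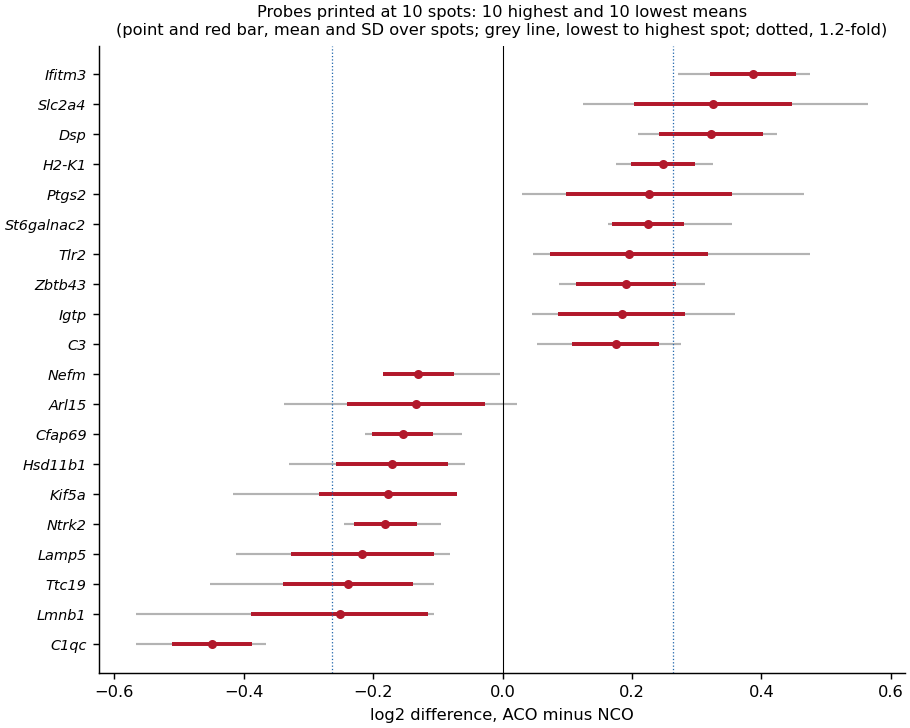
The log2 difference, ACO minus NCO, is shown for the 10 highest and 10 lowest of the 251 probes printed at 10 spots, with the mean and SD over spots in red and the range from the lowest to the highest spot in grey. Ifitm3 and C1qc lie farthest from 0, at 0.39 and -0.45, and neither range reaches 0.

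Gene families were described with 61 lists of cell types, regions, complexes and pathways. Of the 60 lists with at least 4 measured genes, 43 had a median difference within 0.05 of 0, against 0.005 for all genes. In 7 lists the median was at least 0.1 and in 0 lists it was -0.1 or less. Choroid plexus, MHC class II, interferon-stimulated antiviral genes, interferon-induced GTPases, ependyma, reactive astrocytes and dentate granule cells made up the 7. In 7 lists no member passed 1.2-fold, among them CA1, CA3 and CA2, the endothelium, the unfolded protein response, the circadian clock and tau with the Alzheimer risk genes.

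**Figure D4:**
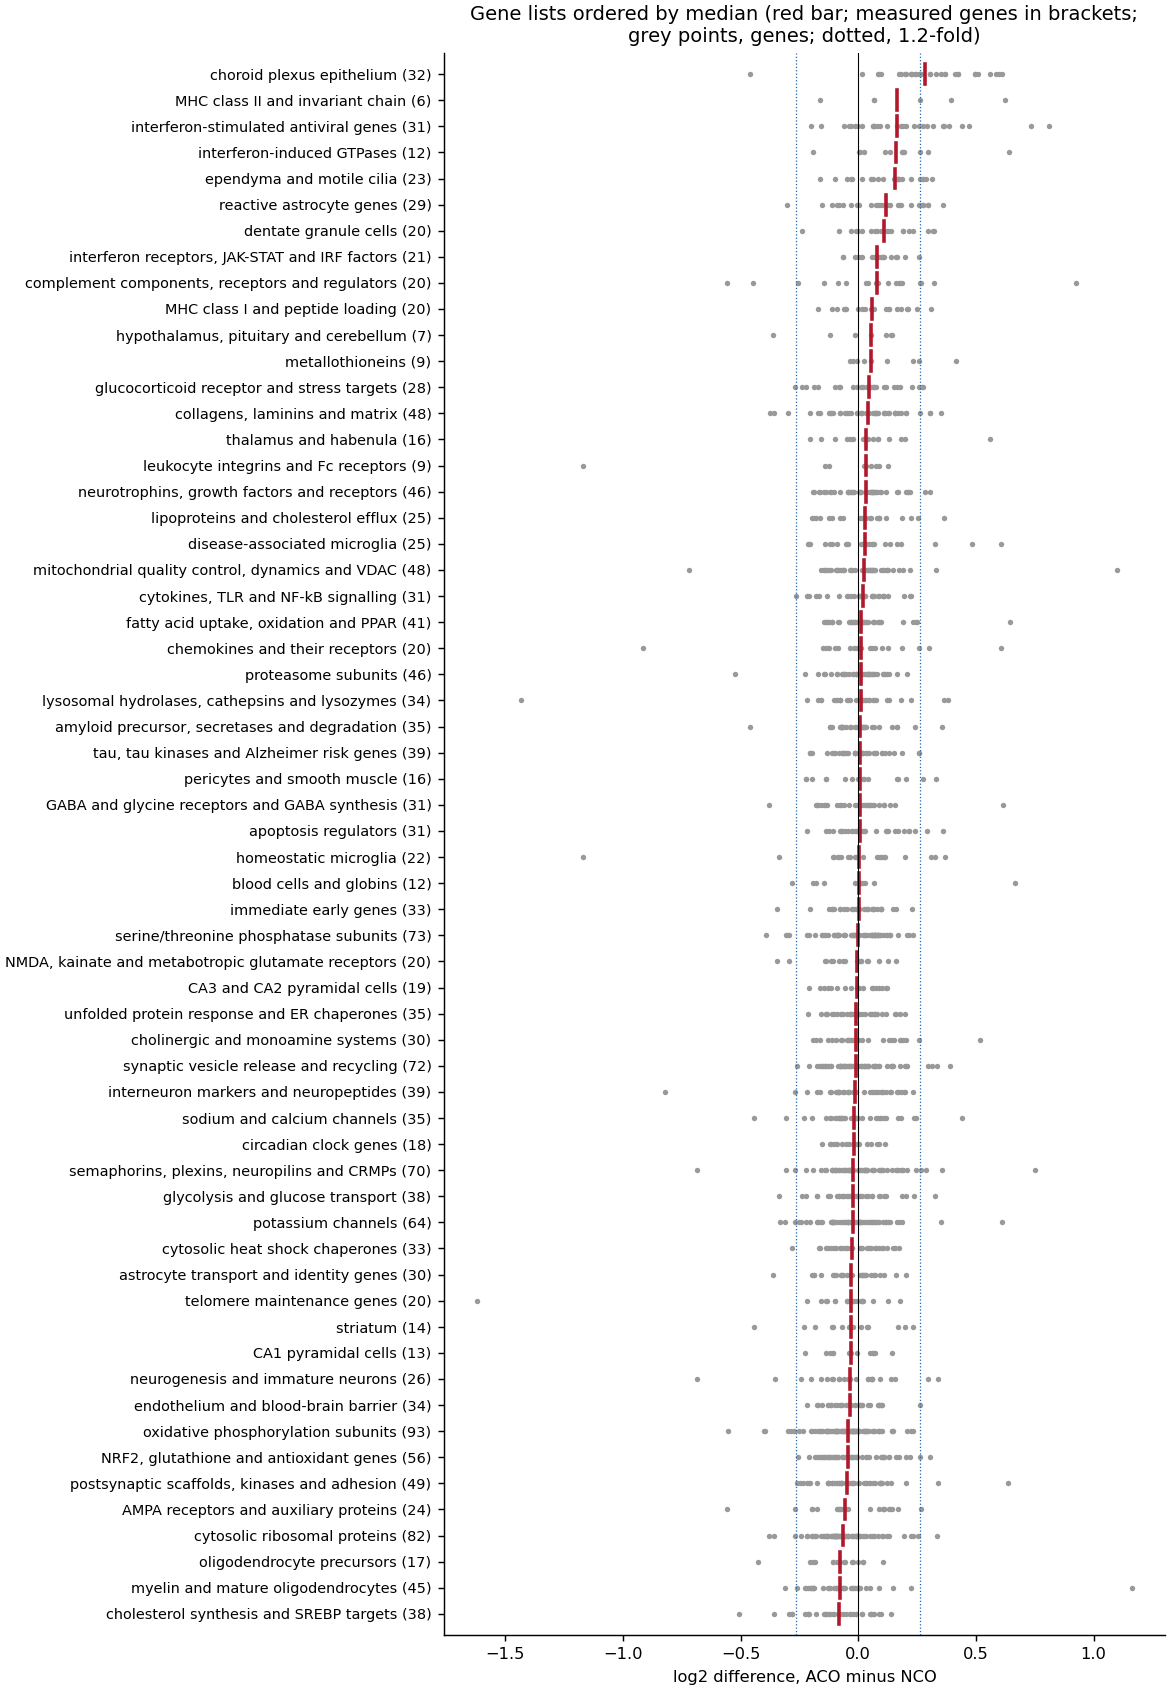
Each row is a gene list with its number of measured genes in brackets, each grey point a gene at its log2 difference, ACO minus NCO, and each red bar the list's median; dotted lines mark 1.2-fold. Choroid plexus stands highest with a median of 0.29, and cholesterol synthesis lowest with one of -0.08.

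Choroid plexus epithelium secretes cerebrospinal fluid and floats in the ventricles. Of its 40 listed genes 32 were measured, the median difference was 0.29, and 31 lay above 0 (51.8% of all genes did). Past 1.2-fold, 17 were higher (53.1%, against 2.76% of all genes) and 1 was lower. All 8 members with more than 1 probe were higher on every probe. The ion and solute transporters were well represented: Kcne2, a potassium channel subunit, read 325 on NCO, 522 on ACO and 338 on ASO, a difference of 0.61. Slc4a5, a bicarbonate transporter, differed by 0.60 on its brightest probe and by 0.11 on the other, Clic6, a chloride channel protein, by 0.50, Kcnj13, a potassium channel, by 0.35 and 0.36 on its probes, and Slc13a4, a sulfate transporter, by 0.31. Folr1, the folate receptor that carries folate into the fluid, read 1128, 1432 and 1232 and differed by 0.33 and 0.42 on its probes. Aqp1, the water channel of the epithelium, differed by 0.27.

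The secreted and regulatory choroid plexus genes followed the transporters. Otx2, the homeobox factor that specifies the epithelium, read 461 on NCO, 704 on ACO and 529 on ASO, a difference of 0.56. Kl, the FGF23 co-receptor klotho, differed by 0.51, Ecrg4, a secreted peptide precursor, by 0.49, and Sostdc1, a BMP and WNT antagonist, by 0.37. Prlr, the prolactin receptor, read 609.5, 801 and 787 and differed by 0.37, while Enpp2, which makes lysophosphatidic acid and is shared with the myelin list, read 18287, 21355 and 19548 and differed by 0.22. Ttr, transthyretin, the carrier of thyroid hormone and among the most abundant transcripts of the epithelium, was the exception at 20070.1 on NCO, 14579 on ACO and 15657 on ASO, a difference of -0.46. Summed over the list, the signals came to 57144, 59698 and 56790.0 on the NCO, ACO and ASO arrays. The defining genes Ttr, Folr1, Kl and Otx2 were all above background on both arrays, and the part of a differing share of choroid plexus in the dissected pools was not tested.

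Ependyma lines the ventricles with motile cilia. Of its 30 listed genes 23 were measured, with a median of 0.16, 18 above 0 (51.8% of all genes were), 5 at least 1.2-fold higher (21.7%, against 2.76% of all genes) and 0 lower. Tekt1, a tektin of the axoneme, read 301, 387 and 335 on the NCO, ACO and ASO arrays and differed by 0.31 and 0.35 on its probes. Foxj1, the master transcription factor of motile cilia, read 115, 149.5 and 158, a difference of 0.27, Dnali1, an axonemal dynein chain, differed by 0.28, and Lrrc23, a radial spoke protein, by 0.29. Spef2, needed for the central pair of the axoneme, lay lowest at -0.16, and Ccdc153 at -0.10. Summed over the list, the signals came to 10862, 11382 and 11544 in the same order. Neighbouring region lists stayed closer to 0, with medians of 0.03 for thalamus and habenula, -0.03 for striatum and 0.06 for hypothalamus, pituitary and cerebellum. At least 1.2-fold lower were 1 of 14 striatum genes (7.14%) and 1 of 7 in the last list (14.3%), against 2.72% of all genes. Of the thalamus and habenula genes only Tnnt1, slow skeletal troponin T, passed 1.2-fold, at 0.56.

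Interferons signal through receptors and JAK kinases to STAT and IRF factors, which switch on antiviral genes. The signalling layer itself differed little: of 21 measured receptor, JAK-STAT and IRF genes, 18 lay above 0 (51.8% of all genes did). The median was 0.08, and 0 of the 21 passed 1.2-fold in either direction. Ifnar2, a chain of the type I receptor, differed by 0.26, Ifnar1, the other chain, by -0.06, and Irf9, which pairs with STAT factors, by 0.10. Irf7, a master factor of the response, was below background on both arrays.

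Of the antiviral targets, 55 were listed. Of these 55 listed genes 31 were measured, with a median of 0.16 and 25 above 0 (51.8% of all genes were). Of the 31, 10 were at least 1.2-fold higher (32.3%, against 2.76% of all genes) and 0 lower. Of the 7 members with more than 1 probe, 1 was higher on every probe and 2 were lower on every probe, and the list median was 0.071 once dim probes were kept. Ifi27l2a, an interferon-induced mitochondrial protein, read 286 on NCO, 539.6 on ACO and 1013.5 on ASO, a difference of 0.81. Bst2, which tethers budding viruses, read 292, 518 and 497, a difference of 0.73. Lgals3bp, a secreted galectin-binding glycoprotein, differed by 0.47 on its brightest probe and by 0.10 on the other. Phf11d, a PHD finger protein, read 76.7, 122 and 169, a difference of 0.44. Rtp4, a receptor transport protein, differed by 0.37, Dtx3l, a ubiquitin ligase, by 0.36, Oas1a, which makes the RNase L activator, by 0.32, and Ddx58, the RNA sensor RIG-I, by 0.29. Of other widely used reporter genes of the response, Ifit3 lay at 0.27, past 1.2-fold, Isg15 at 0.19, Oasl2 at 0.09 and Rsad2 at 0.02. Adar, the RNA deaminase, lay lowest at -0.20, with its other probe at 0.06. For Ifi27l2a, Oas1a, Ifit3 and Isg15, ASO read higher than ACO, as in 423 on NCO, 490.2 on ACO and 742 on ASO for Isg15. The 24 members below background on 1 or both arrays included Ifit1, Mx1, Oas3 and Ifi44, so the list was read only through its brighter members.

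Interferon-induced GTPases attack the vacuoles of intracellular pathogens. The 12 measured of 19 listed had a median of 0.16, with 11 above 0 (51.8% of all genes were), 2 at least 1.2-fold higher (16.7%, against 2.76% of all genes) and 0 lower. Tgtp2, whose close copy Tgtp1 may share its probe, read 490.4 on NCO, 792 on ACO and 390.4 on ASO, a difference of 0.64, and ACO alone was high. No probe named for Tgtp1 was above background on NCO or ACO. Gbp2, a guanylate-binding protein, differed by 0.30, Irgm1, a regulator of the family, by 0.26, and Gbp6 lay lowest at -0.19. The PYHIN family of DNA sensors was read by only 2 of 11 members, Ifi208 at 0.11 and Ifi203 at -0.56, and by Ifi214 in the bounds given further below.

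MHC class II presents extracellular peptides, and 6 of its 13 listed genes were measured, with a median of 0.17 that was 0.066 with no filter on dim probes and 0.262 with the signal to noise limit at 5. H2-Eb1, a class II beta chain, read 282 on NCO, 461 on ACO and 259 on ASO, a difference of 0.62, so that ACO alone was high. Cd74, the invariant chain, read 247, 340.2 and 559, a difference of 0.39, and H2-Ab1, another beta chain, 346, 425 and 482.5, a difference of 0.26. H2-DMb1, a peptide exchange factor, lay at -0.16, and the class II transactivator Ciita was below background on both arrays. The class I list had a median of 0.06 with 20 of 29 genes measured. Of these 14 lay above 0 (51.8% of all genes did), 1 was past 1.2-fold higher (5%, against 2.76%) and 0 were lower. Members of the class I list included H2-Q8 at 0.31, B2m, the shared light chain, at 0.21, Psmb9, an immunoproteasome subunit, at 0.21, and H2-D1 at -0.11. The class I heavy chain genes are near-identical copies, so their separate values are uncertain.

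Complement was mixed, with 20 of 39 genes measured and a median of 0.08. Past 1.2-fold, 3 were higher (15%, against 2.76% of all genes) and 2 were lower (10%, against 2.72%). C4b, which joins the classical cascade to C3, read 1743 on NCO, 3357 on ACO and 4177 on ASO, a difference of 0.93. C4b has a close copy in C4a, which its probe may also read. Regulators of the cascade were on the higher side, Cd59a, an inhibitor of pore formation, at 0.32, Csmd1, a membrane-bound inhibitor, at 0.27 on its brightest probe and -0.11 on the other, and Serping1, the C1 inhibitor, at 0.26. The initiator C1q was on the lower side in all its chains, C1qb at -0.56, C1qc at -0.45 and C1qa at -0.26. C1qb read 804 on NCO, 530.1 on ACO and 1271 on ASO, so ACO was the lowest array and ASO the highest.

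**Figure D5:**
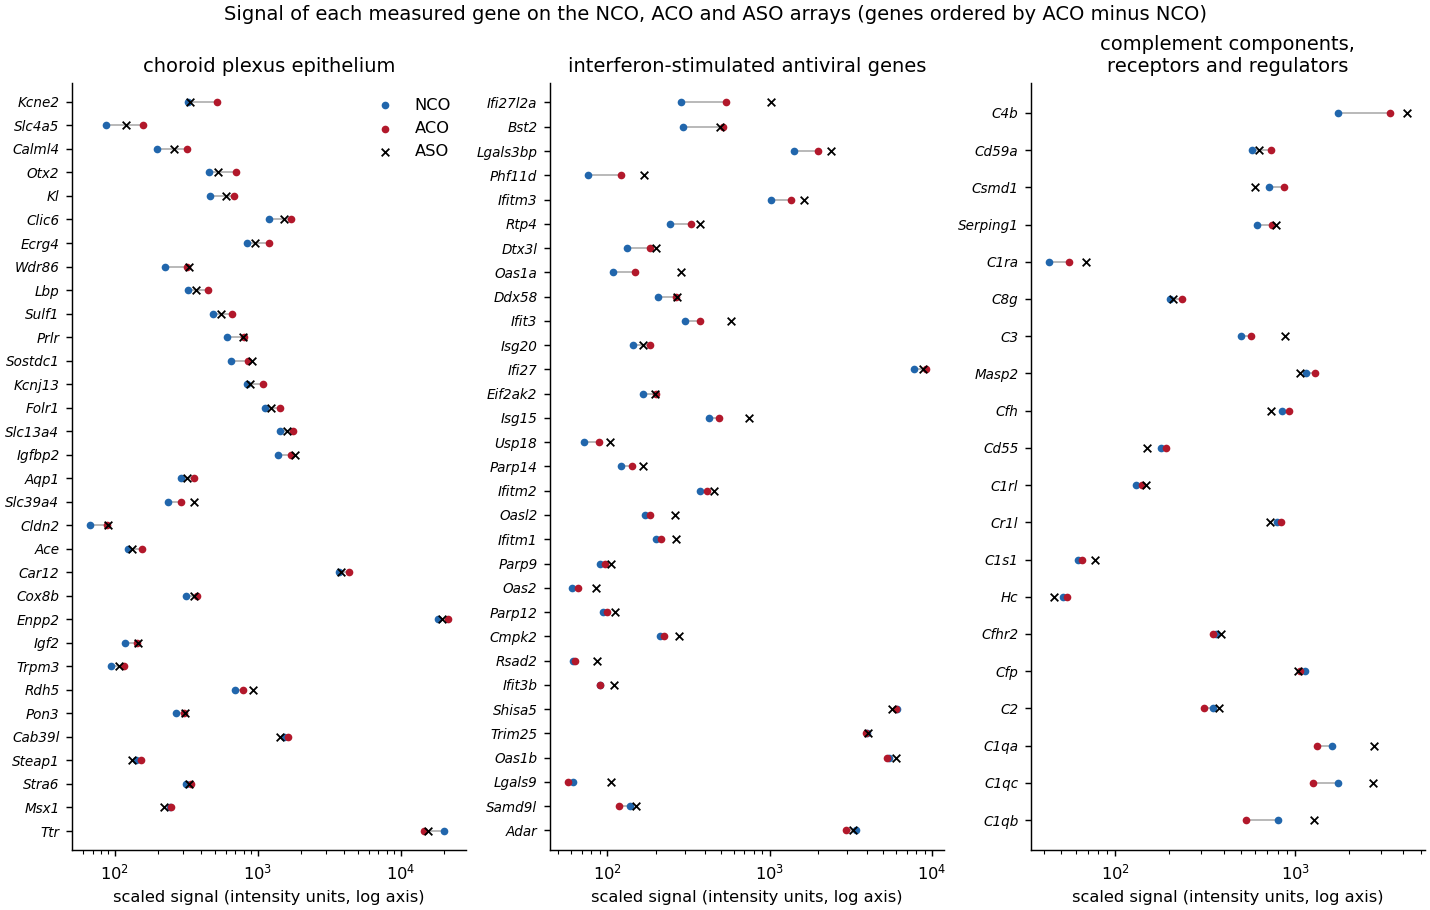
Scaled signals on a log axis are shown for every measured gene of the choroid plexus, antiviral and complement lists on the NCO (blue), ACO (red) and ASO (black cross) arrays, with a grey line joining NCO and ACO. All choroid plexus genes but Ttr read higher on ACO than on NCO, C4b was the widest complement gap, and the C1q chains read lowest on ACO.

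Microglia are the resident macrophages that make C1q, and their homeostatic list had a median of 0.01, with 22 of 25 genes measured, 11 above 0 and 11 below. P2ry12, the purinergic receptor of resting microglia, read 645 on NCO, 847 on ACO and 631 on ASO, a difference of 0.37, and Aif1, the marker Iba1, read 763, 958 and 1382, a difference of 0.31. Csf1r, the survival receptor of the lineage, differed by 0.09, Cx3cr1, the fractalkine receptor, by -0.09, and Slc2a5, a fructose transporter, by -0.34. The list thus held members on both sides with Itgam, given above, at its lower end. The disease-associated list had a median of 0.03, with 3 of 25 at least 1.2-fold higher (12%, against 2.76% of all genes) and 0 lower. Ccl6, a chemokine, read 116 on NCO, 203 on ACO and 329.9 on ASO, a difference of 0.61, Cd52, a small surface glycoprotein, read 161, 244 and 645, a difference of 0.48, and Lgals3, galectin 3, differed by 0.33. Trem2, the lipid receptor of that state, read 1658, 1432 and 2727, a difference of -0.20, and its adaptor Tyrobp differed by 0.02.

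Cytokine, Toll-like receptor and NF-kB genes had a median of 0.02 over 31 measured. Past 1.2-fold, 0 were higher and 1 was lower (3.23%, against 2.72% of all genes). Among chemokines and their receptors the median was 0.01 over 20 measured of 57 listed. Beside Ccl6 and Ccl19, Ccl12 read 65.0 on NCO, 91.6 on ACO and 149.6 on ASO, a difference of 0.30, and Cxcl10, an interferon-induced chemokine, differed by 0.26. In the lysosomal list, with a median of 0.01 over 34 genes, Ctsh, a cathepsin, read 1623, 2131 and 2219, a difference of 0.38, and Lipa, which hydrolyses cholesteryl esters, differed by 0.37. Blood cell genes had a median of 0.005 over 12 measured of 28 listed. Past 1.2-fold, 1 was higher and 1 was lower (8.33% each, against 2.76% and 2.72% of all genes), the lower at -0.28. The higher was S100a9, a neutrophil protein, which read 71.4 on NCO, 143 on ACO and 70.4 on ASO, a difference of 0.67. The listed genes S100a8, Ngp, Ltf and Mpo were below background on both arrays. The globin genes lay between -0.18 for Hbb-b2 and 0.07 for Hbb-bt.

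Reactive astrocytes turn on a set of injury genes, and 29 of 39 listed were measured, with a median of 0.12, 21 above 0 (51.8% of all genes were), 6 at least 1.2-fold higher (20.7%, against 2.76%) and 1 lower (3.45%, against 2.72%). Emp1, a membrane protein, differed by 0.36, Vim, the intermediate filament vimentin, by 0.30 and Lcn2, a siderophore-binding lipocalin, by 0.27. Gfap, the standard marker of the reactive state, read 2888 on NCO, 2878 on ACO and 5207 on ASO, a difference of -0.005, with a range from -0.09 to 0.13 over its 3 probes. Cd44, the hyaluronan receptor, lay lowest at -0.30. The transport and identity genes of astrocytes had a median of -0.03 over 30 measured. Their ends were Aldoc, aldolase C, at 0.20 and S1pr1, a sphingosine phosphate receptor, which read 2698, 2089 and 2433 and lay at -0.36.

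Oligodendrocytes wrap axons in myelin, and 45 of 46 listed genes were measured. Of these 36 lay below 0 (48.2% of all genes did), with a median of -0.08. In each direction 1 passed 1.2-fold (2.22%, against 2.76% higher and 2.72% lower of all genes), so most members differed by little in the same direction. Cnp, a myelin phosphodiesterase, read 8567 on NCO, 6891 on ACO and 7304 on ASO, a difference of -0.31. Mog, a myelin membrane protein, lay at -0.23, Adamts4, a protease of mature cells, at -0.26, and Mbp, myelin basic protein, at -0.03. Klk6, given above at 1.16, stood far from the rest of the list. Precursors of the lineage lay on the same side, with a median of -0.08 over 17 genes, 14 of them below 0 (48.2% of all genes were). Sox5, a transcription factor, was lowest at -0.43. The endothelial list had a median of -0.04 with 0 of 34 past 1.2-fold. The pericyte and smooth muscle list had one of 0.01 with 2 of 16 higher (12.5%, against 2.76% of all genes) and 0 lower. They were Tpm2, a tropomyosin, at 0.33 (0.04 on its other probe) and Cnn1, calponin, at 0.28. The 48 measured collagen, laminin and matrix genes had a median of 0.04, from Nid2, nidogen 2, at 0.35 to Col9a2 at -0.38. Past 1.2-fold, 3 were higher and 3 lower (6.25% each, against 2.76% and 2.72% of all genes).

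Of 20 measured dentate granule cell genes 15 lay above 0 (51.8% of all genes did), with a median of 0.11, 3 at least 1.2-fold higher (15%, against 2.76% of all genes) and 0 lower. Ahcyl2, a regulator of ion transport, read 6985 on NCO, 8710.2 on ACO and 7115 on ASO, a difference of 0.32 that its other probe did not share at -0.03, Bhlhe22, a neuronal transcription factor, differed by 0.29, and Stxbp6, a syntaxin-binding protein, by 0.23. Calb1, calbindin of granule cells, differed by 0.10, Prox1, the factor that fixes their identity, by -0.01, and Pdzd2 lay lowest at -0.24. The CA1 list had a median of -0.03 over 13 genes and the CA3 and CA2 list one of -0.004 over 19. Immature neuron and neurogenesis genes had a median of -0.04 over 26, with Mki67, a proliferation marker, at 0.34, Ccna2, a cyclin, at -0.36 and Tubb3, neuronal tubulin, at -0.24. Interneuron and neuropeptide genes had one of -0.01 over 39, from Pdyn, prodynorphin, at 0.23 to Crh, corticotropin-releasing hormone, at -0.27 and Pam at -0.82.

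Synaptic genes were close to 0 as lists and differed gene by gene. AMPA receptors carry fast excitation, and their list had a median of -0.05 over 24 genes. Past 1.2-fold, 1 was higher (4.17%, against 2.76% of all genes) and 2 were lower (8.33%, against 2.72%). Gria1, the GluA1 subunit, read 2943 on NCO, 1983 on ACO and 2873 on ASO, a difference of -0.56, so that ACO alone was low. Gria2, the GluA2 subunit, differed by 0.09 on its brightest probe and by -0.15 on the other, and Grip1, a scaffold that binds GluA2, by 0.27. Of the NMDA, kainate and metabotropic receptors, with a median of -0.003 over 20, Grik5, a kainate receptor subunit, lay at -0.34 but at 0.087 with spot means, Grin3a, an NMDA receptor subunit, at -0.29, and the obligatory NMDA subunit Grin1 at -0.002. The postsynaptic list had a median of -0.05 over 49 genes, and in it Kalrn, a spine-forming exchange factor, differed by 0.34 on its brightest probe and by -0.24 on the lowest of its 5 probes. The presynaptic list had one of -0.01 over 72, with 4 genes at least 1.2-fold higher (5.56%, against 2.76% of all genes) and 0 lower. They were Syn1, synapsin 1, which read 7418, 9724 and 11406 and differed by 0.39, Ppfia1, liprin alpha 1, at 0.34, Snap91, a clathrin adaptor, at 0.32, and Snap25, a fusion protein, at 0.29. Syn2, the paralogue of Syn1, lay at the other end at -0.26.

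Receptors and channels of other systems followed the same pattern. GABA and glycine genes had a median of 0.01 over 31, with Gabra4 highest and Gabarapl1, an autophagy adaptor related to the GABA receptor-associated protein, lowest at -0.38. Cholinergic and monoamine genes had one of -0.01 over 30, with Adra1b, an alpha-1 adrenergic receptor, at 0.52 on its brightest probe and 0.10 on the other, and Th, tyrosine hydroxylase, at 0.26. Sodium and calcium channel genes ran from Cacna1h, a T-type calcium channel, at 0.44 to Scn4b, a sodium channel beta subunit, at -0.44, with a median of -0.02 over 35. Potassium channels had a median of -0.02 over 64, with the choroid plexus genes Kcne2 and Kcnj13 at the upper end and Kcnb2, a delayed rectifier, at -0.33. The immediate early genes switched on by firing neurons had a median of 0.005 over 33. Fos differed by 0.04, Arc by 0.04 and Ier3, a stress response gene, lay at -0.34.

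Genes of amyloid and tau biology were close to 0 as lists. The amyloid list had a median of 0.01 over 35, with App, the precursor protein, at -0.07, Bace1, the beta secretase, at -0.04 and Ide, insulin-degrading enzyme, at 0.03. Plat, tissue plasminogen activator, was its highest gene at 0.35, and Ttr, given above with the choroid plexus, its lowest at -0.46. The tau and risk gene list had a median of 0.01 over 39, with Mapt, tau itself, at 0.10 and 0 genes past 1.2-fold. Neurotrophins and growth factors had a median of 0.03 over 46. Bdnf differed by 0.06, and Fgf23, a phosphate hormone, read 3495 on NCO, 4268 on ACO and 9168 on ASO, a difference of 0.28. Semaphorins, plexins and CRMPs had one of -0.02 over 70 with Plxna4 and Dpysl3 at its ends, and Dcc, the netrin receptor, read 16482, 13307 and 13234, a difference of -0.31.

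Metabolic lists lay on both sides of 0. Those of lipoproteins and cholesterol efflux, and of fatty acid uptake and oxidation, had medians of 0.03 over 25 genes and 0.01 over 41, and glycolysis and glucose transport had one of -0.02 over 38. Cholesterol is made in the brain itself through the SREBP-controlled pathway, and of 38 measured genes 28 lay below 0 (48.2% of all genes did). Their median was -0.08, with 5 at least 1.2-fold lower (13.2%, against 2.72% of all genes) and 0 higher. Mvk, mevalonate kinase, read 3295 on NCO, 2305 on ACO and 2611 on ASO, a difference of -0.51. Insig1, a sterol sensor, lay at -0.29 and Stard4, a sterol carrier, at -0.28. Hmgcs1, a synthase early in the pathway, differed by 0.07. Cytosolic ribosomal proteins had a median of -0.07 over 82, with 62 below 0 (48.2% of all genes were). That median ran from -0.069 to -0.012 over the processing settings. Rpl41 lay at 0.33, and Rpl13 at -0.36 on its brightest probe but 0.37 on the highest of its 4 probes. Oxidative phosphorylation subunits had a median of -0.04 over 93, which ran from -0.056 to -0.010 over the same settings. Of them 66 lay below 0 (48.2% of all genes did), 6 were at least 1.2-fold lower (6.45%, against 2.72%) and 0 were higher. These shares below 0 were not set against genes of like brightness. Among the brightest 3329 genes, 64 were at least 1.2-fold lower and 41 at least 1.2-fold higher. Cox6b1, a subunit of complex IV, read 1992, 1344 and 1625, a difference of -0.55, and Sdhd of complex II and Ndufb2 of complex I both lay at -0.40.

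Stress and clearance lists gave few members past 1.2-fold, although in some of these short lists their share exceeded that of all genes. Mitochondrial quality control had a median of 0.03 over 48, and beside Pink1 and Vdac2, Clpx, a matrix protease subunit, differed by 0.33. Antioxidant genes had one of -0.04 over 56, with Mgst1, a microsomal glutathione transferase, at 0.31, heat shock chaperones one of -0.03 over 33, with Hspa2 at -0.28, and the unfolded protein response one of -0.01 over 35 with 0 past 1.2-fold. Proteasome subunits had a median of 0.01 over 46, with Psmd13, a lid subunit, at -0.52. Apoptosis regulators had one of 0.01 over 31, with 2 at least 1.2-fold higher (6.45%, against 2.76% of all genes) and 0 lower. They were Pmaip1, the BH3 protein Noxa, at 0.36 and Casp6, an executioner caspase, at 0.29. The metal-binding list had a median of 0.05 over 9, with Slc30a1, a zinc exporter, at 0.41 (1 gene higher, 11.1%), and Mt1 at -0.02. The glucocorticoid list had one of 0.05 over 28, with 18 above 0 (51.8% of all genes were). Past 1.2-fold, 2 of its genes were higher (7.14%, against 2.76%) and 1 was lower (3.57%, against 2.72%). Tsc22d3, a direct target known as GILZ, lay at -0.24.

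Genes above background on only 1 array have at most a bound and no measured difference. Of the 23694 named genes, 589 were above background on ACO only, 394 on NCO only and 9379 on neither. The array above background is called bright here and the other dim. The signal to noise score decided this, so the signal was at times no higher on the bright array, which leaves no bound. Pdgfrb passed on NCO only, with 484 on NCO and 509 on ACO, and Rgs16 on ACO only, with 275 and 260. The bound reached 1.5-fold for 2 of the 589 genes and 4 of the 394. The bound sets the mean of the bright array against the higher of the dim array's lowest signal above background and the dim probe's own signal, on the log2(signal + 50) scale. ACO alone was bright for Ifi214, a PYHIN DNA sensor gene, whose signals were 15.1 (NCO), 1893 (ACO) and 19.8 (ASO), at least 29.9-fold higher on ACO. ACO alone was dim for Cstdc2, a cystatin-like gene, whose signals were 970.0 (NCO), 18.5 (ACO) and 646 (ASO), at least 14.9-fold lower on ACO. Both are members of families with close copies. All other bounds were below 2-fold. On the higher side were F5, coagulation factor V and a listed choroid plexus gene, at least 1.66-fold, Rev1, a translesion polymerase, at least 1.49-fold, Krt10, a keratin, at least 1.45-fold, and Has3, a hyaluronan synthase, at least 1.42-fold. On the lower side were Ms4a19, a membrane-spanning gene, at least 1.66-fold, Pde5a, a cGMP phosphodiesterase, at least 1.52-fold, Dlec1 at least 1.46-fold and Zar1l at least 1.42-fold.

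Genes that differed were at times neighbours in the genome, a description chosen after their values were seen and based on gene order in a RefSeq table of assembly GRCm38.p6. Of 12749 measured genes that could be placed, 348 were at least 1.2-fold higher, and 7.47% of those had an adjacent measured gene that was also higher, against 5.40% of all placed genes. For the 341 lower genes the shares were 8.21% and 5.25%. These were 26 higher and 28 lower genes, so most genes past 1.2-fold had no such neighbour. Pink1, Camk2n1, Pla2g5 and Tmco4 were all higher within a stretch of 31 annotated genes, of which 7 were measured. Pla2g5, a secreted phospholipase, differed by 0.32, and Tmco4, a membrane protein, by 0.27. Gm3893, Fam205a2 and Ccl19 were all lower within a stretch of 31 annotated genes, of which 5 were measured, with a median of -0.91. Both runs were picked from several, and the others are not described. Nearby genes also went opposite ways, such as Lemd3 at 1.82 and Tbc1d30 at -0.65, 10 apart in gene order. C4b at 0.93 and Zbtb12 at -0.54 were 15 apart. Members of such clusters include close copies, so their probes may not be independent.

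The authors' deposited table gives intensities for 475 probes, chosen by a rule not given in the sources used here. By the authors' deposited table, 144 of them were higher on ACO than on NCO, each by at least 1.51-fold, and 331 were lower, each by at least 1.32-fold. Of the 417 of them that entered the comparison here, 104 were at least 1.2-fold higher and 223 at least 1.2-fold lower in the values used here. Since that table was selected on these arrays, its counts are not independent of the values above.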

How the data were processed

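Hippocampal RNA pools of NCO, ACO and ASO were read on 1 one-colour Agilent 4x44K mouse array each, and the 3 arrays shared 1 slide. Each spot's foreground and background intensities, its percent of saturated pixels and its signal to noise score were deposited as the authors obtained them with a GenePix 4000B scanner and GenePix Pro 6.1.0.4, without normalization, per the file headers. The submitters' processing notes name Agilent Feature Extraction, whose columns these GenePix files do not hold, so foreground medians were corrected by normexp instead.

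The normexp correction (limma 3.58.1, R 4.3.3, saddle method, no offset) ran on all 45220 spots. Control spots were left out, arrays were multiplied to share one 75th percentile (factors 1.06 on NCO, 0.949 on ACO and 0.991 on ASO), 50 was added, and log2 was taken. Spots of 1 probe were averaged. A probe entered when its signal to noise score reached 2.6 on NCO and ACO, unless 50% or more of its pixels were saturated on both, which left out 3 probes, or its spot was marked bad, which left out 2 probes on NCO. In all, 19295 probes entered. Names came from a RefSeq table of assembly GRCm38.p6 (26581 probes by accession, 2597 by symbol, 490 by synonym and 20 through listed hits), the file's own name stood for 1789, and 7952 stayed unnamed. The brightest entered probe, by its mean log2 signal over the 3 arrays, stood for its gene. The pipeline was tested on simulated data. Python 3.11.15, numpy 2.4.6 and pandas 2.3.3 were used.

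The authors' deposited value table holds intensities on a linear scale, and over its 448 probes printed at 1 spot each column was a straight line of the foreground median, with slopes of 1, 0.917 and 0.893 on NCO, ACO and ASO and deviations below 0.05. The reason for the slopes is not given in the sources used here, and the column medians were 116.8, 97.4 and 113.3.

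The gene lists and the members were chosen with earlier results of these data known. Named genes were the 15 highest and 15 lowest differences at or above the lower quartile of signal, leaving out predicted and clone names, the 10 highest and 10 lowest of genes whose probes all went 1 way, the 10 highest and 10 lowest probes printed at 10 spots, members at the ends of each list or needed to describe it, and the 5 highest and 5 lowest bounds. The remaining genes at or past 2-fold, the widest probe disagreements and the neighbouring genes were chosen after their values were seen. Sequences and promoters were not used here. A few genes are not reported here.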

Additional observations from a re-analysis of the deposited data

How the results depend on the processing

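The 4 counts, the 60 list medians and the differences of 222 named genes were recomputed under 13 other settings and 1 more chosen after seeing the data. Of the 147 of these genes at or past 1.2-fold, 1 changed sign, Grik5 at 0.087 with spot means, and the cause was not tested; 13 of the genes within 1.2-fold changed sign under some setting. Counts at 1.2-fold were 157 higher and 166 lower with 200 added before log2, and 665 higher and 1009 lower with no filter on dim probes, which adds dim genes. Counts at 2-fold higher were 3 with spot means, of which 1 was shared with the 5 reported, and 3 with 200 added. Counts at 2-fold lower were 2 with 200 added and 3 with the signal to noise limit at 5. With no filter the MHC class II median was 0.066 and the antiviral median 0.071, and with that limit the MHC class II median was 0.262; the other list medians moved by less than the median spot SD of 0.0847. The choroid plexus median ran from 0.243 to 0.329. The 12 lists followed most closely were picked after their medians were seen. The spots around each probe had a median difference within 0.207 of 0 in a window of 5 spots each way, a width kept after several had been looked at. In a window of 2 spots, chosen after seeing the data, 17 genes had surroundings at or past 0.3 in size, among them Lemd3 at -0.34 and Pold1 at -0.31. No paired analysis was possible because each group has 1 array. Dim probes near background, whose fold changes the added constant shrinks, limit what can be read for the cytokine and interferon genes.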
